A study of Mus musculus with 26 samples.

Results

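The results below follow 7 genes of meiotic oocytes, Ccnb3, Taf7l, Gc, Tmc2, Ssmem1, Speer4a and Pet2, through the fetal mouse ovary. They were chosen from 16344 genes of the deposited count table because their counts rose in germ cells towards embryonic day E16.5 in an earlier analysis of the same data. The rise up to E16.5 therefore chose the genes and is described here without a test. Tests were run only on E17.5 and E18.5, stages that the rule of choice does not name, and on the Negative gate of those stages. Whether the earlier analysis drew on these stages is not known here. Chromosome spreads or other staging of prophase were not analysed here, so the 7 are called the E16.5-rising genes and not by a stage of meiosis.

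The series holds 1881 single cells of female gonads in 26 libraries from E11.5 to E18.5, sorted by fluorescence and picked by hand. All mice carried the BVSC transgenes Blimp1-mVenus and Stella-ECFP, the cell names give the genotype WT, and the gonads of several embryos of a stage were pooled before trypsin digestion. The sort gate named after both reporters, BVSC, held 1302 cells, the gate BV held 50 cells of E11.5 and E14.5, and the gate Negative held 529 cells. Counts of unique molecular identifiers (UMIs) were summed over the cells of a library and gate, and levels are UMIs per 1000000 (CPM) of the deposited UMI totals of those cells.

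There were 18 BVSC pools of 26 to 96 cells and 4743602 to 27498626 UMIs, and 17 Negative pools of 8 to 48 cells and 700825 to 13141802 UMIs. BVSC pools came from libraries 1 and 7 at E11.5, 8 and 9 at E12.5, 3 and 10 at E13.5, 4, 5, 12 and 14 at E14.5, 16 and 18 at E15.5, 20 and 22 at E16.5, 24 and 25 at E17.5, and 6 and 26 at E18.5. Values of a stage are given in this order of libraries. Negative pools came from libraries 1, 2 and 7 at E11.5, 8 and 9 at E12.5, 3 at E13.5, and 4, 13 and 15 at E14.5. They came from libraries 17 and 19 at E15.5 and 21 and 23 at E16.5, which held no BVSC pool. At E17.5 and E18.5 both gates came from the same libraries. The labels do not say whether the libraries of a stage came from separate litters, and the p-values below therefore reflect only how far libraries differ, which could be technical. At E14.5, libraries 4, 5 and 12 carry the deposited replicate name R1 and library 14 carries R2, so these pools may not be independent. No cell name occurred in more than 1 library. The gates were checked with markers: 10 germ cell genes of the table, among them Dppa3, Mael and Sycp3, summed to 2333 to 3313 CPM in BVSC pools and 34.3 to 551 CPM in Negative pools. The 4 early gonadal somatic genes Wt1, Nr5a1, Lhx9 and Tcf21 summed to 6.54 to 78.8 CPM in BVSC pools and 593 to 1517 CPM in Negative pools. Somatic marker UMIs outnumbered germ marker UMIs in 29 of the BVSC cells and in 511 of the Negative cells.

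In the pachytene stage of meiotic prophase the homologous chromosomes are fully paired along the synaptonemal complex, and recombination is completed between them. Fetal oocytes pass through it before birth and then arrest in the dictyate stage, when primordial follicles form. Many transcripts of this period are better known from the testis, where spermatocytes pass the same stage with silenced sex chromosomes, whereas oocytes keep both X chromosomes active.

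Of the 7 genes, 3 lie on the X chromosome: Ccnb3 (X:6979652-7041619), Pet2 (X:89403848-89409689) and Taf7l (X:134460118-134476490). X-linked genes make up 6.68% of the 16252 annotated genes of the table, and no test was made of this share. Gc (5:89417522-89457898) and Speer4a (5:26032846-26039558) lie on chromosome 5, Tmc2 (2:130195194-130264445) on chromosome 2 and Ssmem1 (6:30509849-30520254) on chromosome 6, all in the GRCm38 build. All 7 are protein coding, and none shares exon sequence with an overlapping gene in the annotation. The counts are per gene and do not resolve exons. Ssmem1 starts 66 bases from Tmem209, which had 81.0, 106 and 78.2 CPM at E14.5, E16.5 and E18.5.

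The bases upstream of the start are shown for 3 of the genes, because Taf7l was the first to rise, Ccnb3 had the lowest E18.5 share of its highest level, and Gc is known as a gene of the liver. Each run is the 250 bases before the RefSeq start in GRCm38.p6, read along the strand of the gene, which is minus for all 3, with matches to CACGTG and TATAAA in capitals. They lie at chrX:134476491-134476740 for Taf7l, chrX:7041620-7041869 for Ccnb3 and chr5:89457899-89458148 for Gc.

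Taf7l: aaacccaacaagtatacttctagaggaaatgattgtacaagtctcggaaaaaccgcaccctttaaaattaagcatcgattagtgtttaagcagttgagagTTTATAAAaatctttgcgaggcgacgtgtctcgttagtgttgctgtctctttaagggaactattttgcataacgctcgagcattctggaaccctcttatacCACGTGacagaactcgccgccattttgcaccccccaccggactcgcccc

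Ccnb3: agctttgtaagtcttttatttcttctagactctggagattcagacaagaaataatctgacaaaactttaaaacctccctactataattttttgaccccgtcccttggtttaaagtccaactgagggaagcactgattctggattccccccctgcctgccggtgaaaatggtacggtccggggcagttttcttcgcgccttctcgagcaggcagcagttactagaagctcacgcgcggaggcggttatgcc

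Gc: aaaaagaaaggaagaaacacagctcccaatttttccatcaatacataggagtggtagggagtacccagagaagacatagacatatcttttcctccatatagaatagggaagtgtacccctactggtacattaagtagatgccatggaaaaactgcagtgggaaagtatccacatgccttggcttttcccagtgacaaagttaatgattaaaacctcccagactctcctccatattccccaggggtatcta

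RefSeq promoter entries were matched for 5 of the 7 genes: these 3, Speer4a and Ssmem1. They were searched on both strands for CACGTG, the E-box bound by MAX and MGA, for the general E-box CANNTG, which contains it, for TGACG of the cAMP response element, for GCGGGA of E2F6, for AACNG of MYB proteins, for CNCCTCAG of STRA8 and for TATAAA of the TATA box. Taf7l held CACGTG, whose first base lay 49 bases before the start, and TATAAA, which matched on both strands in an overlap of 4 bases. The other 4 held neither, and none of the 5 held the letters searched for the cAMP response element, E2F6 or STRA8 in these windows. Among 32851 promoter windows of the same length, CACGTG occurred in 6.02% and TATAAA in 12.4%. The letters of the cAMP response element occurred in 17.8%, those of E2F6 in 16.9% and those of STRA8 in 6.42%. AACNG occurred in 74.2% and CANNTG in 66.2% of all windows. AACNG was in 4 of the 5, all but Speer4a, and so was CANNTG. The windows also differed in CpG dinucleotides, with 16 in Ssmem1, 14 in Taf7l, 11 in Ccnb3, 1 in Speer4a and 0 in Gc, against a median of 6 over all windows. These matches describe letters in the sequence and do not show binding.

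The genes rose at different stages in BVSC pools. Onset is the first stage whose mean reached 10% of the gene's highest stage mean, so it depends on that height and does not mark the first UMIs. It fell at E14.5 for Taf7l, at E15.5 for Ccnb3, Gc, Ssmem1 and Pet2, and at E16.5 for Tmc2 and Speer4a. The highest stage mean fell at E16.5 for Taf7l, at E17.5 for Ccnb3, Gc, Ssmem1 and Speer4a, and at E18.5 for Tmc2 and Pet2. E16.5 thus held the highest mean for Taf7l alone, and the stage of the highest mean was the same with TMM-scaled totals for all 7. The pools of the highest and the second-highest stage overlapped for every gene except Ssmem1, so most of these peaks are not separated from a plateau.

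**Figure D1:**
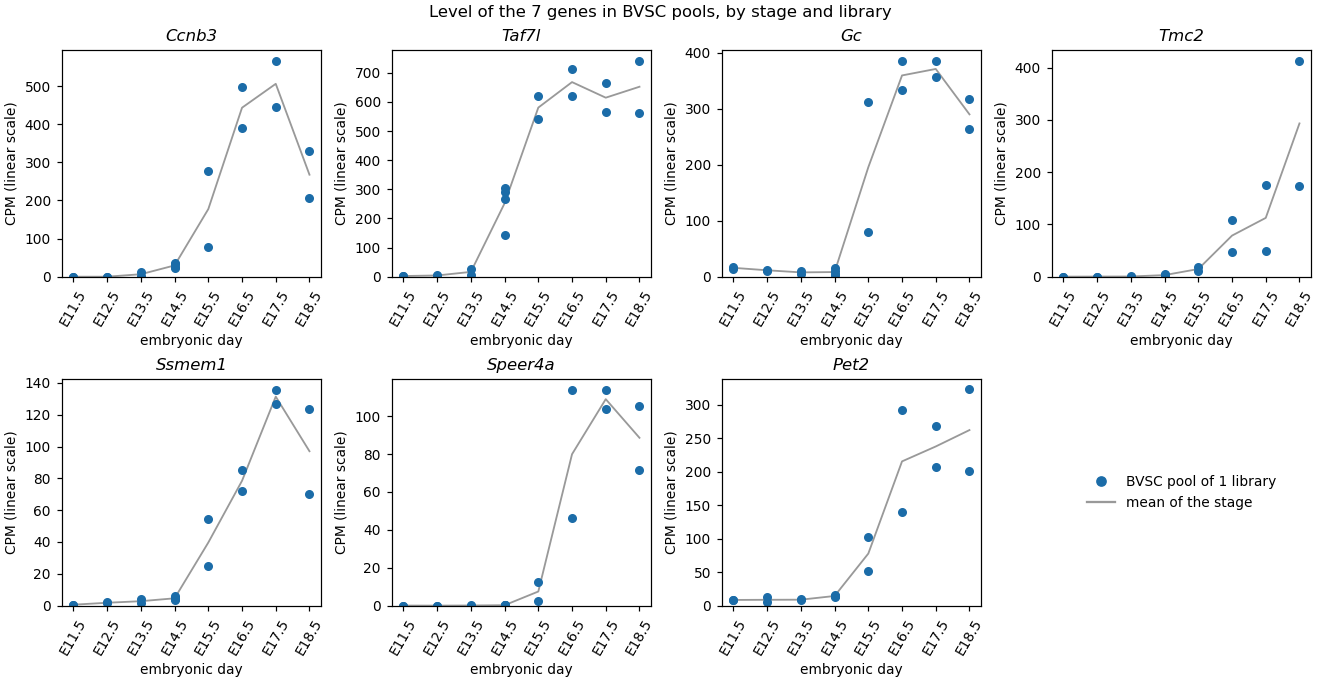
Level of each gene in CPM on a linear axis (y) by embryonic day (x); each point is the BVSC pool of 1 library and the grey line joins the stage means. All 7 genes are low up to E13.5, and Tmc2 alone has its 413 CPM maximum far above the other pools of its panel, in library 26 of E18.5.

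Taf7l, a paralog of the TFIID subunit Taf7 that in mouse spermatids works with the TBP-related factor TRF2, was the earliest. It had 1.10 and 3.47 CPM at E11.5, 5.65 and 2.81 at E12.5, and 27.6 and 5.46 at E13.5. At E14.5 it had 267, 145, 306 and 291 CPM, at E15.5 620.4 and 541, at E16.5 622 and 714, at E17.5 665 and 564, and at E18.5 563 and 742. Every E14.5 pool was above every earlier pool, both E16.5 pools lay above both E15.5 pools, the lower of them narrowly, and the pools of E16.5, E17.5 and E18.5 overlapped. The E16.5 mean was 668 ± 65.2 CPM (SD, n = 2). The E14.5 mean of 252 ± 73.2 CPM (SD, n = 4 pools, libraries 4, 5 and 12 sharing a replicate name) was 37.7% of that at E16.5. No decline followed: the E18.5 mean was 97.6% of the highest.

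Ccnb3 encodes cyclin B3, an X-linked cyclin that mouse oocytes need for the onset of anaphase in the first meiotic division. It had no UMI in the 4 pools of E11.5 and E12.5, where 3 counts per library allow at most 0.113 to 0.183 CPM. It had 11.6 and 1.36 CPM at E13.5 and 22.2, 35.6, 34.5 and 26.1 CPM at E14.5. At E15.5 it had 277 and 77.7 CPM, at E16.5 390.0 and 497, at E17.5 446 and 567, and at E18.5 329.7 and 206. Both E18.5 pools lay below all 4 pools of E16.5 and E17.5, and the E18.5 mean was 52.9% of the highest, the lowest share among the 7 genes at that stage.

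Gc encodes the vitamin D-binding protein, a plasma protein of the albumin family that is made mainly in the liver. It was not silent before its rise, with 14.2 and 17.51 CPM at E11.5, 12.7 and 10.3 at E12.5, 4.83 and 10.6 at E13.5, and 4.22, 10.3, 3.89 and 14.8 at E14.5. It then had 312 and 79.0 CPM at E15.5, 334 and 385 at E16.5, 386 and 356 at E17.5, and 316 and 263 at E18.5. The 2 libraries of E15.5 stood further apart than those of any later stage, as they did for Ccnb3. The hepatocyte markers Alb, Afp, Apoa2 and Fgb summed to 0.145 to 41.7 CPM over the BVSC pools and to 0 to 31.4 CPM over the Negative pools.

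Tmc2, a channel subunit known from mechanotransduction in hair cells of the inner ear, had an E16.5 onset and its highest mean at E18.5. It had 0.0611 to 0.468 CPM in the 6 pools up to E13.5 and 2.70, 5.02, 1.71 and 2.81 CPM at E14.5. It had 10.98 and 18.4 CPM at E15.5, 48.1 and 109 at E16.5, 176 and 48.8 at E17.5, and 173 and 413 at E18.5. The libraries of a stage differed widely from E16.5 on, and the E16.5 mean was 26.8% of the E18.5 mean. Tmc2 thus reached the smallest share of its highest mean at E16.5 among the 7 genes.

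Ssmem1 encodes a serine-rich single-pass membrane protein that mouse sperm need for motility. It had 0.547 to 4.01 CPM up to E13.5 and 3.99, 3.78, 4.65 and 5.97 CPM at E14.5. It had 54.3 and 25.1 CPM at E15.5, 71.8 and 85.1 at E16.5, 136 and 127 at E17.5, and 70.3 and 124 at E18.5. Both E17.5 pools exceeded all other pools, though library 26 of E18.5 came close.

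Speer4a belongs to a mouse family of glutamate-rich proteins named for their transcripts in spermatogenesis. It had 0 to 0.0902 CPM up to E13.5 and 0.235, 0.326, 0.0727 and 0.231 CPM at E14.5, from 2, 5, 2 and 6 UMIs. It had 12.6 and 2.28 CPM at E15.5, 46.2 and 114 at E16.5, 104 and 114 at E17.5, and 71.8 and 105 at E18.5. Its fitted log2 difference between E16.5 and E14.5, 8.51, was the highest of the 7 and rests on those few E14.5 UMIs. Of the 31-base runs in the last 300 bases of its transcript, 74.8% also occur in transcripts of other genes, 9 in all and Gm7347 first among them, so its counts may be shared with these near copies. None of the other 6 genes had such a run.

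Pet2, plasmacytoma expressed transcript 2, is X-linked. It had a low but steady level of 5.25 to 12.1 CPM up to E13.5, and 16.4, 12.4, 14.3 and 14.4 CPM at E14.5. It had 103.1 and 52.2 CPM at E15.5, 139 and 291 at E16.5, 268 and 207 at E17.5, and 322 and 201 at E18.5. Pools of E16.5, E17.5 and E18.5 overlapped.

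**Figure D2:**
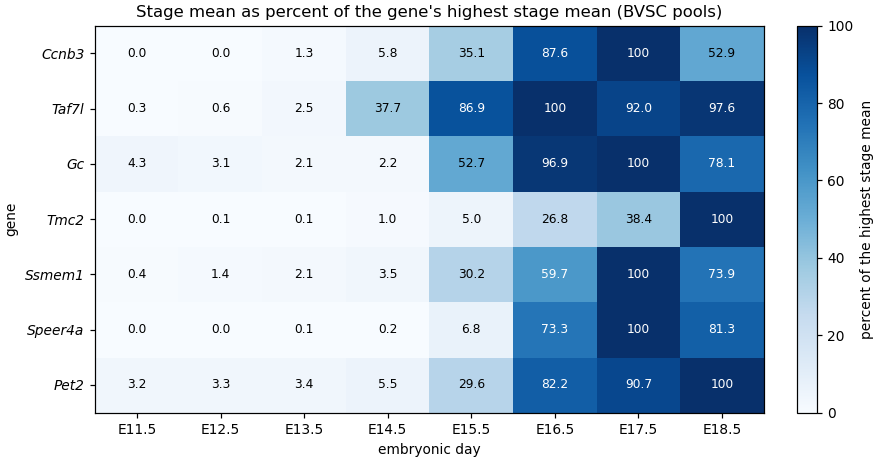
Stage mean of each gene (rows) by embryonic day (columns) as a percent of the gene's highest stage mean in BVSC pools; darker is higher. Taf7l alone passes 10% at E14.5 (37.7%), and at E18.5 the genes span 52.9% for Ccnb3 to 100% for Tmc2 and Pet2.

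As a description of the rise, the fitted log2 difference between E16.5 and E14.5 was 3.86 for Ccnb3, 1.39 for Taf7l, 5.39 for Gc, 4.63 for Tmc2, 4.06 for Ssmem1 and 3.88 for Pet2, beside a median of 0.08 over all 11291 genes tested. These values chose the genes. Between E17.5 and E16.5 the fitted differences lay between -0.16 for Taf7l and 0.70 for Ssmem1, and between E18.5 and E16.5 they lay between -0.77 for Ccnb3 and 1.94 for Tmc2.

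E18.5 was tested against E17.5, stages that the rule of choice does not name, and none of the 7 passed. By edgeR's quasi-likelihood test at an adjusted p of 0.05 it was 0 of 7, beside 0.133% of all genes called. It was also 0 of 7 at an unadjusted p of 0.05, and 0 of 7 by DESeq2. Over all genes 15 differed, 7 higher (0.062%) and 8 lower (0.0709%) at E18.5, against 3 higher and 7 lower with upper-quartile scaling and 6 higher and 11 lower with the deposited totals. Ccnb3 had 329.7 and 206 CPM at E18.5, against 446 and 567 CPM at E17.5, without overlap. Its log2 fold change was -0.92 ± 0.98 (SE; edgeR adjusted p = 0.955), with a 95% interval of -2.84 to 1.01. Gc had 316 and 263 CPM at E18.5, against 386 and 356 CPM at E17.5, and Ssmem1 had 70.3 and 124 CPM, against 136 and 127 CPM. Their pools did not overlap either, and their log2 fold changes were -0.33 ± 0.82 and -0.36 ± 0.84. Tmc2 had the largest difference of the 7, 1.49 ± 0.98 (edgeR adjusted p = 0.867), with an interval of -0.42 to 3.40. Its 2 libraries of E17.5 lay far apart, at 176 and 48.8 CPM, and its log2 fold change was 2.07 without library 6, 2.66 without library 24, 0.87 without library 25 and 0.52 without library 26. The intervals of Pet2, Taf7l and Speer4a all held 0 and reached from -1.90 to 1.99 in all. For 6 of the 7, all but Tmc2, the interval thus reached past a 2-fold difference in both directions.

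The same stages were compared between the gates, to see how far the levels of the 7 genes differ between them. The 4 BVSC pools of E17.5 and E18.5 were set against the 4 Negative pools of the same libraries. The genes had been picked because germ cells express them, which made higher levels in BVSC pools likely. The calls are therefore not independent evidence that the genes belong to germ cells. Higher levels in BVSC pools passed the test for 6 of the 7 genes (edgeR, adjusted p under 0.05), beside 15.3% of all genes called higher and 15.8% called lower. In every library the BVSC pool was higher for all 7. The median log2 fold change over all genes was 0.47, and 0 with DESeq2, so the values below stand against that shift.

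Ssmem1 had 136, 127, 70.3 and 124 CPM in the BVSC pools of libraries 24, 25, 6 and 26, against 8.42, 5.48, 2.71 and 3.85 CPM in their Negative pools. Its log2 fold change was 4.52 ± 0.71 (SE; edgeR adjusted p = 5.8e-06). Ccnb3 had 446, 567, 329.7 and 206 CPM in BVSC pools, against 28.4, 37.1, 12.54 and 8.67 CPM in Negative pools, a log2 fold change of 4.23 ± 0.80 (edgeR adjusted p = 0.00012). Neither gene's gates overlapped, and the lowest BVSC pool of Ccnb3 was still several times its highest Negative pool.

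Tmc2 differed by 4.17 ± 0.78 and Pet2 by 4.12 ± 0.77 on the log2 scale (edgeR adjusted p = 9.5e-05 and 8.4e-05). Tmc2 ordered the 4 libraries alike in both gates, from library 25 with 48.8 CPM in BVSC and 0.843 CPM in Negative to library 26 with 413 CPM in BVSC and 30.2 CPM in Negative. Gc differed by 3.18 ± 0.63 (edgeR adjusted p = 0.00016), with 263 to 386 CPM in BVSC and 22.5 to 52.5 CPM in Negative pools. Taf7l had the smallest value of the called genes, 2.64 ± 0.71 (edgeR adjusted p = 0.0041), with 563 to 742 CPM in BVSC and 65.1 to 138 CPM in Negative pools.

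Speer4a was the exception, at 104, 114, 71.8 and 105 CPM in BVSC pools and 25.8, 33.3, 51.9 and 22.5 CPM in Negative pools of libraries 24, 25, 6 and 26. Its gates did not overlap, but the log2 fold change of 1.53 ± 0.62 missed the threshold (edgeR adjusted p = 0.0575), with a 95% interval of 0.31 to 2.74. With the library as a block, since the 2 gates compared share each library, the value was 1.53 and the edgeR adjusted p was 0.0183. Without library 26 it was 1.10, with an adjusted p of 0.329.

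**Figure D3:**
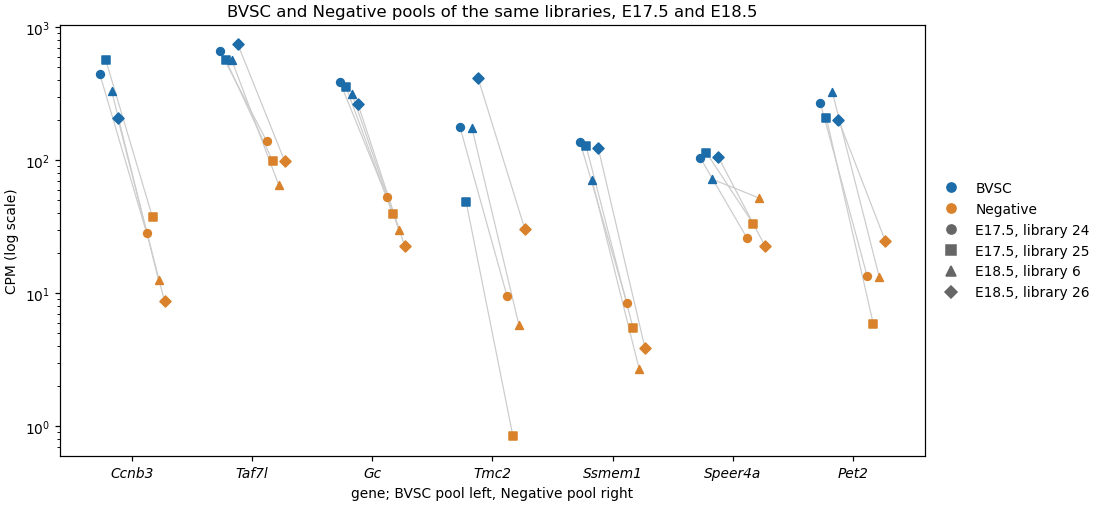
CPM on a log axis (y) of each gene (x) in the BVSC pool (blue, left) and the Negative pool (orange, right) of the same library, joined by a line; markers show the 4 libraries of E17.5 and E18.5. Every line runs down from BVSC to Negative, and the line of Speer4a in library 6 is the flattest, with 71.8 and 51.9 CPM.

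The Negative level was a different share of the BVSC level for each gene. In the 4 libraries the Negative pool reached 3.80% to 6.54% of the BVSC pool for Ccnb3, 3.11% to 6.2% for Ssmem1, 1.73% to 7.30% for Tmc2 and 2.85% to 12.3% for Pet2. It reached 8.53% to 13.6% for Gc, 11.6% to 20.8% for Taf7l and 21.3% to 72.2% for Speer4a. The germ identity markers summed to 13.4% to 18.1% in the same pools, but single markers differed widely. Sycp3 reached 4.07% to 7.40% and Hormad1 4.51% to 8.81%, near the shares of Ccnb3, against 13.8% to 21.7% for Mael and 8.63% to 51.4% for Kit. The part that free RNA or single germ cells had in these Negative levels was not tested. Cells with at least as many germ as somatic marker UMIs, 1 to 3 per Negative pool, held 6 of the 98 Ccnb3 UMIs in library 24, 2 of 88 in library 25, 9 of 37 in library 6 and 2 of 27 in library 26.

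Before E17.5 the Negative pools held little of most genes. At E15.5 and E16.5 these pools lay in libraries without BVSC pools, and at E17.5 and E18.5 in the same libraries. Stage and sharing of a library therefore cannot be told apart between these stages. Ccnb3, Gc, Tmc2, Pet2 and Ssmem1 stayed at or below 8.19 CPM in all Negative pools up to E14.5. Library 17 of E15.5 had 36.0 CPM of Ccnb3 and 143 CPM of Taf7l, and 5 of its 46 Negative cells with at least as many germ as somatic marker UMIs held 325 of the 341 Ccnb3 UMIs and 1037 of the 1350 Taf7l UMIs. Library 19 of the same stage had no such cell, 1.28 CPM of Ccnb3 and 20.8 CPM of Taf7l.

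Speer4a went the other way at E14.5, where the BVSC pools had at most 0.326 CPM and the Negative pools of libraries 4, 13 and 15 had 14.4, 17.3 and 16.1 CPM. The gates did not overlap at this stage, and the order was opposite to that at E17.5 and E18.5. No Negative cell of E14.5 had as many germ as somatic marker UMIs, so none of the 104, 227 and 162 Speer4a UMIs there came from a cell with germ markers in that number. The single richest cell held 42.3%, 19.8% and 22.8% of them. Before that, Negative pools had 0, 21.4 and 3.46 CPM in libraries 1, 2 and 7 of E11.5, with 15 UMIs behind the value of library 2. They had 0.363 and 0 CPM at E12.5 and 7.29 CPM in library 3 of E13.5. The Negative level was 15.2 to 28.3 CPM at E15.5 and E16.5, and both BVSC pools first exceeded every Negative pool of their stage at E16.5. Since the 3′ end of Speer4a is shared with near copies, the gene that gave these UMIs is uncertain.

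At E11.5 Taf7l had 1.10 and 3.47 CPM in BVSC pools, against 130.2, 166 and 72.3 CPM in the Negative pools of libraries 1, 2 and 7. The Negative levels rest largely on single cells: 1 cell held 176 of 247 UMIs in library 1, all 116 in library 2 and 195 of 209 in library 7. In library 8 of E12.5, 1 cell held 195 of 197 UMIs, and library 9 of that stage had 0.410 CPM. None of these cells had as many germ as somatic marker UMIs.

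At E14.5 the BV gate of libraries 4 and 5 could be set beside the BVSC gate of the same libraries. Taf7l had 191 and 396 CPM in BV pools, against 267 and 145 CPM in BVSC pools, and Ccnb3 had 20.8 and 31.2 CPM in BV pools, against 22.2 and 35.6 CPM in BVSC pools. Gc had 1.46 and 39.1 CPM in BV pools, against 4.22 and 10.3 CPM in BVSC pools. The order of the gates changed between the 2 libraries for Taf7l and Gc, and with 15 and 30 BV cells no difference was tested. The cell names also carry a letter of unknown meaning. In library 4 all BV cells carry P and all BVSC cells carry D, so gate and letter cannot be told apart there. In library 5 the BV cells carry C or D and the BVSC cells C or P.

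Within the BVSC gate the genes differed in how many cells carried them. Shares are of cells with at least 1 UMI, with every cell thinned to 100000 UMIs to compare them at 1 depth, and with exact 95% binomial intervals that cover counting error only. The thinning left out 192 of the BVSC and 147 of the Negative cells as too shallow. At E14.5 Taf7l was found in 97.4% of 233 BVSC cells (94.5% to 99.0%) and in 35.0% of 117 Negative cells (26.5% to 44.4%). Ccnb3 was found in 39.9% of these BVSC cells (33.6% to 46.5%) and in 3.42% of the Negative cells (0.939% to 8.52%). Without thinning the shares were 98.2% and 53.7% in BVSC cells, at a median of 260311 UMIs, and 51.8% and 4.38% in Negative cells, at a median of 208924. Taf7l thus had UMIs in nearly all BVSC cells at a stage when many had none of Ccnb3.

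At E16.5 Ccnb3, Gc and Taf7l were found in 100% of 138 thinned BVSC cells (97.4% to 100%). Speer4a was found in 74.6% (66.5% to 81.7%) of them and in 38.4% of 73 Negative cells (27.2% to 50.5%). Tmc2 was found in 50% (41.4% to 58.6%) of the BVSC cells and in 8.22% of the Negative cells (3.08% to 17.04%). The Tmc2 share was 67.5% at E17.5 (58.3% to 75.8%) and 84.0% at E18.5 (74.1% to 91.2%) in BVSC cells. In Negative cells it was 36.0% at E17.5 (17.97% to 57.5%) and 64.0% at E18.5 (42.5% to 82.0%). For Speer4a at E14.5 the share was 1.29% in BVSC cells (0.266% to 3.72%) and 27.4% in Negative cells (19.5% to 36.4%). The median depth of those Negative cells, given above, was below that of the BVSC cells.

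At E17.5 and E18.5 the shares did not separate the gates for Gc and Taf7l, since 100% of 25 thinned Negative cells at either stage had a UMI of each (86.3% to 100%). The thinning left out 21 of 46 Negative cells at E17.5 and 19 of 44 at E18.5 as too shallow. For some other genes the shares did separate the gates. At E18.5 Ccnb3 was found in 96.3% of BVSC cells (89.6% to 99.2%) and in 60% of Negative cells (38.7% to 78.9%). Ssmem1 was found in 81.5% of BVSC cells (71.3% to 89.2%) and in 32% of Negative cells (14.9% to 53.5%). For Tmc2 and Speer4a the E18.5 intervals overlapped, at 74.1% to 91.2% and 69.9% to 88.3% in BVSC cells. In Negative cells the interval of both was 42.5% to 82.0%. Unthinned, these Negative cells had medians of 131738 and 121403 UMIs and shares of 91.3% and 93.2% for Gc. The levels of Gc do differ: the 181 Gc UMIs in 24 Negative cells of library 24 came to 52.5 CPM, against 386 CPM in the BVSC cells of that library.

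**Figure D4:**
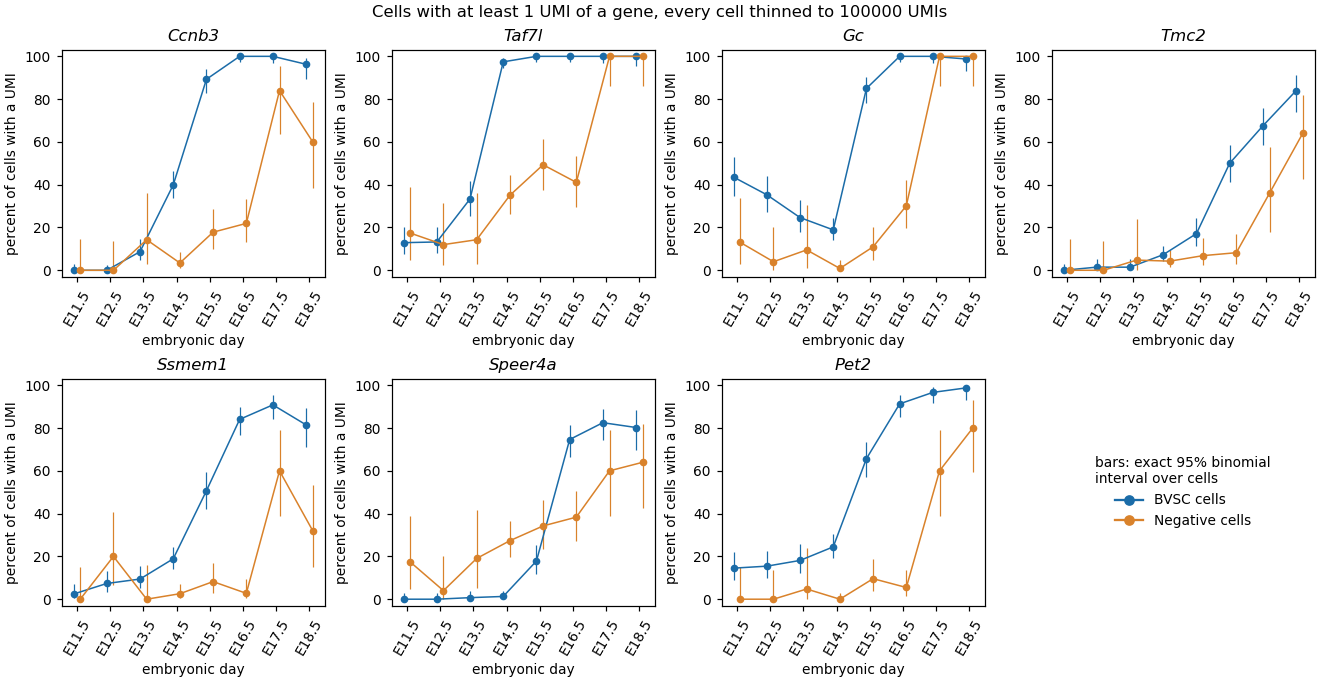
Percent of cells with at least 1 UMI of each gene (y) by embryonic day (x), for BVSC (blue) and Negative (orange) cells thinned to 100000 UMIs; bars are exact 95% binomial intervals over cells. BVSC shares climb between E13.5 and E16.5, Negative shares climb at E17.5, and Speer4a has the higher share in Negative cells up to E15.5. Negative cells shared their libraries with BVSC cells at E17.5 and E18.5 but not at E15.5 and E16.5. Stage and sharing of a library thus cannot be told apart in the climb of the Negative shares.

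Among BVSC cells of 1 library of E16.5, Ccnb3, Gc and Taf7l were spread more evenly than Tmc2 and Speer4a. In library 20 of E16.5 the median cell had 381 CPM of Ccnb3 (quartiles 246 and 534), 317 CPM of Gc (152 and 468) and 633 CPM of Taf7l (491 and 810). In the same library the median cell had 2.80 CPM of Tmc2 (0 and 11.8) and 15.9 CPM of Speer4a (4.16 and 58.9). The top 10 of its 96 cells held 82.0% of the Tmc2 level and 46.3% of the Speer4a level, against 20.7% for Ccnb3. In library 22 of E16.5 the top 10 of 92 cells held 57.4% for Tmc2, 48.3% for Speer4a and 23.3% for Ccnb3. The median cell of library 22 had 10.1 CPM of Tmc2 (quartiles 0 and 133).

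At E18.5 Tmc2 was less uneven. The top 8 of 71 cells in library 6 held 34.3% of its level, at a median of 124 CPM, and the median cell of library 26 had 490 CPM (quartiles 189 and 578, 26 cells). At E17.5 the libraries differed: the median was 36.0 CPM in library 24, where the top 8 of 71 cells held 52.4%, and 4.62 CPM in library 25, where the top 8 of 71 held 79.3%. The lower quartile of Ccnb3 at E18.5 was 208 CPM in library 6 and 43.7 CPM in library 26.

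**Figure D5:**
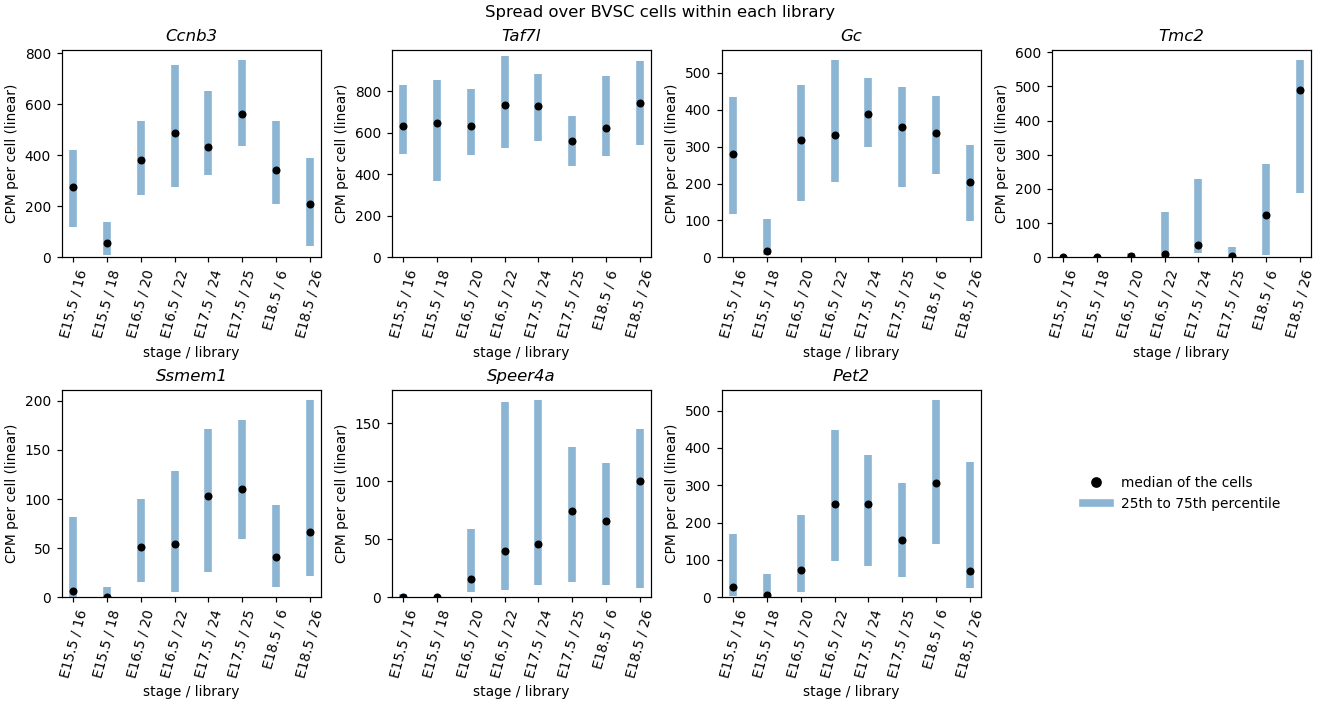
Level per BVSC cell in CPM (y, linear) for each library of E15.5 to E18.5 (x, stage and library number); dots are medians and bars run from the 25th to the 75th percentile of the cells. Ccnb3, Gc and Taf7l have medians well above 0 in all libraries of E16.5 to E18.5, while the Tmc2 median stays under 40 CPM in all libraries but the 2 of E18.5.

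Pairs of genes were compared over the cells of each of the 8 BVSC libraries of E15.5 to E18.5, as Spearman correlations that share the depth of the cell and are given without a test. Ccnb3 and Gc were positively correlated in 8 of 8 libraries, from 0.02 to 0.63 with a median of 0.27. Tmc2 and Speer4a were positively correlated in 8 of 8, from 0.05 to 0.46 with a median of 0.33. Ccnb3 and Tmc2 were positive in 2 of 8, from -0.29 to 0.15 with a median of -0.09. Cells rich in Tmc2 thus tended to be rich in Speer4a and not in Ccnb3, but most of these correlations were weak.

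Over the 18 BVSC pools, the genes with the course most like the mean of the 7 were taken from 6079 genes with a stage mean of at least 10 CPM, by Pearson correlation of log2(CPM + 1). They were Prps1 (r = 0.98), which makes the precursor of nucleotides, Maoa (0.98), the monoamine oxidase A, Morn5 (0.98), Meig1 (0.98), needed for sperm formation in mice, Nsun4 (0.98), Fam229b (0.98), Efcab14 (0.98), Efcab2 (0.98), Ribc1 (0.97) and Pex11a (0.97). They share the 8 stages and the libraries with the 7 genes. In BVSC against Negative pools of E17.5 and E18.5, 8 of these 10 were called higher, beside 15.3% of all genes. Prps1 (0.99, edgeR adjusted p = 0.0697) and Nsun4 (1.14, edgeR adjusted p = 0.078) were not called. The 10 were picked by their levels in BVSC pools, those of E17.5 and E18.5 among them, so this count is not independent of the choice.

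Single genes had different nearest neighbours by course. Tmc2 was most like Lhx8 (r = 0.97), a transcription factor of oocytes that had 3.71, 52.5 and 369 CPM at E14.5, E16.5 and E18.5. Taf7l was most like Xlr4c (r = 0.99), Ccnb3 like Eea1 (0.98), Gc like Gm28268 (0.98), Pet2 like Maoa (0.98) and Ssmem1 like Ribc1 (0.98). Speer4a was most like Gm7347 (r = 1.00), which lies 12325 bases away and shares its 3′ sequence. Over these pools the 7 genes correlated with each other at 0.64 (Gc and Taf7l) to 0.97 (Pet2 and Speer4a).

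The meiotic machinery that these cells use was measured beside the 7 genes, from lists chosen with earlier results of the data known. The genes read held only part of each list: 7 of 15 synaptonemal complex and cohesin genes and 11 of 35 recombination genes. They held 18 of 26 cyclins and kinases, 10 of 24 TFIID and TBP genes and 5 of 11 TMC genes. They also held 10 of 17 SPEER genes, 10 of 12 albumin and vitamin D genes, and 13 of 19 oocyte and follicle genes. Over all genes, 15.3% were called higher in BVSC pools at E17.5 and E18.5. Of the synaptonemal complex and cohesin genes, 7 of 7 tested were higher in BVSC than in Negative pools at E17.5 and E18.5, with a median log2 fold change of 3.87 against 0.47 for all genes, though Sycp3 and Hormad1 are also among the germ markers above. Sycp1, the transverse filament, had stage means of 541, 1388, 1359 and 1159 CPM at E14.5, E16.5, E17.5 and E18.5, and Hormad1, an axis protein, had 374, 633, 619 and 424 CPM. Both were thus plentiful at E14.5, when Ccnb3, Gc, Tmc2, Ssmem1, Speer4a and Pet2 stood at 0.198% to 5.85% of their highest means. Of the recombination genes 11 of 11 were higher, with a median of 3.54, among them Zcwpw1, a reader of histone marks at break sites, and Brca2.

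Of the cyclins and kinases of G2 and M phase, 5 of 18 were higher and 0 lower, beside 15.3% and 15.8% of all genes. Their median was 0.45, against 0.47 for all genes. The 5 called are named next. They were Wee2, Aurkc, Mastl, Bub1 and Mad2l1, of which the first 3 are named after their values were seen. Cdk1, the partner of B-type cyclins, differed by 1.06 (edgeR adjusted p = 0.0553) and had 193, 116, 192 and 233 CPM at E14.5, E16.5, E17.5 and E18.5. Over the same stages Ccnb3 had means of 29.6, 444, 506 and 268 CPM.

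Around Taf7l, 4 of 10 TFIID subunits and TBP paralogs were higher and 0 lower, with a median of 1.13, beside 15.3% of all genes called higher. They were Taf3 and, named after their values were seen, Taf4, Taf9b and Taf10. Tbpl1, the mouse gene of TRF2, had 58.9, 94.4, 76.2, 75.4 and 72.3 CPM from E14.5 to E18.5 in BVSC pools. Taf9b, the X-linked paralog of Taf9, rose with Taf7l, at 23.2, 102, 120, 130 and 141 CPM, which was also noticed after its values were seen. Taf1, the largest subunit, had 90.9 CPM at E16.5, against 164 CPM at E14.5.

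Of the TMC family and its partners, Tmc3 was higher in BVSC pools (3.33, edgeR adjusted p = 0.025) and Tmc4 lower (-2.81, edgeR adjusted p = 0.001), of 5 tested. Over all genes 15.3% were called higher and 15.8% lower. Tmc3 had 2.85, 5.40, 13.7 and 37.2 CPM at E14.5, E16.5, E17.5 and E18.5, late like Tmc2 and at lower CPM. Pcdh15, part of the tip link in hair cells, stayed at or below 1.34 CPM in every stage mean from E14.5 on. Of the SPEER family 0 of 5 tested were called by edgeR, with 1 at an unadjusted p of 0.05 and 1 of 9 by DESeq2. Speer4b had 0, 4.67, 9.87 and 4.74 CPM at E14.5, E16.5, E17.5 and E18.5, and the other 9 genes of that list stayed at or below 1.69 CPM in these BVSC means.

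Of the albumin family and vitamin D genes, 2 of 10 were higher in BVSC pools and 0 lower, beside 15.3% and 15.8% of all genes. The 2 were Cyp2r1, the vitamin D 25-hydroxylase (3.34, edgeR adjusted p = 0.003), and Cubn, a receptor of the binding protein (3.93, edgeR adjusted p = 0.0237). Their list had a median of 3.71, or 2.03 with the 2 genes at 0 in a gate set to the bound of 3 counts. Alb, next to Gc in the family, stayed at or below 1.23 CPM and Afm at or below 5.59 CPM in every stage mean from E14.5 on. Afp, of the same family, had 0.607, 15.2, 1.32, 9.77 and 17.54 CPM from E14.5 to E18.5. Of the oocyte and follicle genes 6 of 13 were higher and 0 lower, with a median of 3.17, or 2.87 at the bound. Figla, which primordial follicles need in mice, was not called (2.08, edgeR adjusted p = 0.0516). It had 87.6, 302, 450 and 738 CPM at E14.5, E16.5, E17.5 and E18.5. Tmc2 and Pet2 also had their highest means at E18.5, though their pools there overlapped those of E17.5. Between E18.5 and E17.5 none of these lists had a gene called by edgeR, with 2 oocyte genes at an unadjusted p of 0.05 and 1 by DESeq2.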

How the data were processed

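The authors made the counts before they deposited them: single cells were tagged with cell barcodes and UMIs at the 3′ end by a modified STRT-seq, per the labels' protocols. The submitters' processing notes name CASAVA 1.8, UMI-tools, STAR, Subread, featureCounts and the build mm10; for the other tools no version is given. The deposited table holds whole UMI counts per gene and cell, and 16344 complete genes of it were read; 1 cut line at its end was left out. Per cell, the genes read make up 51.2% of the UMIs that the authors deposited as its total (median; 40.1% to 56.4%), and other genes are not analysed here. The median cell had 214706 UMIs (10016 to 948642). Gates come from the deposited cell table.

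Counts were summed per library, stage and gate over pools of at least 5 cells. All BVSC and Negative pools entered 1 edgeR 4.0.16 quasi-likelihood fit in R 4.3.3 with TMM factors, filterByExpr (11291 genes) and Benjamini-Hochberg adjustment over all of them, at a threshold of 0.05. The method was tested on simulated data. Alternatives were DESeq2 1.42.0, other scalings, no filter, at least 10 cells a pool, thinning, cells left out by markers, merged or fewer pools, a block and each library left out. Tests were run for E18.5 against E17.5 in BVSC pools and for BVSC against Negative pools of both stages. Doublets were not called; cells were picked one by one, per the labels' protocols.

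In the second comparison both gates come from the same libraries. Deviations of the BVSC and Negative pools of a library from their group means correlated at 0.19 at E17.5 and 0.18 at E18.5 over 11291 genes.

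The members and gene lists were chosen with earlier results of these data known. Besides the members, the text names the 10 genes most like their mean course, the most like gene of each, annotated neighbours and the 3 most abundant genes of each list, with others said to be named after their values were seen; not every gene under this rule is reported here.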

Additional observations from a re-analysis of the deposited data

How the results depend on the processing

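Without a library, the count of genes called between E18.5 and E17.5 ranged from 0 without library 26 to 40 without library 6 (15 with all, 6 without library 24). It was 94 with no filter, 68 with DESeq2, 0 with pools thinned to the lowest total, 0 with only the pools compared, and 1 with BVSC pools only, a setting added once the data had been seen. The causes were not tested. None of the 7 genes was called under any of the 16 alternatives, and 4 changed direction when a library was left out: Pet2 (-0.046 without library 6, 0.34 without library 26), Ssmem1 (0.10 without library 6, -1.01 without library 26), Speer4a (0.14 without library 6, -0.71 without library 26) and Taf7l (-0.23 without library 26, 0.46 without library 6). The replicate names R1 and R2 pair no samples by the labels, and same-named pools of the 2 stages correlated at -0.06. With that name as a block 10 genes were called. Between BVSC and Negative pools, 6 of the 7 genes were called under all 15 alternatives. Speer4a was called under 7 of 15, with adjusted p of 0.00663 to 0.329, and the library block changed no other call among the 7. Up to E13.5 counting error limits Speer4a and Tmc2, whose BVSC pools hold at most 2 and 12 UMIs.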

Other observations

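Cell names of E13.5 to E16.5 carry a letter, C, D or P, whose meaning is not given in the sources used here, and the letters are not used as groups. Within library 22 of E16.5, Tmc2 had 168.8, 32.1 and 124.7 CPM in cells of C, D and P, and Speer4a had 148.7, 35.4 and 151 CPM. Ccnb3 had 492, 640 and 378 CPM in the same cells. In library 20 of the same stage, Tmc2 had 55.4, 47.1 and 40.4 CPM and Speer4a 57.1, 47.2 and 30.7 CPM. No test was made.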
